A study of Bos indicus and Bos taurus with 17 samples.

Results

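Described here are 10 genes that carry a signal from Toll-like receptors and interleukin 1 receptors to the transcription factor NF-kB, or switch that signal off again. They were picked by name, with earlier results of these data known, and they are 10 of the 21631 distinct gene names in the table. MYD88, IRAK3, IRAK4 and TRAF6 form the upstream part, NFKB1, NFKB2, REL and RELA encode NF-kB subunits, and NFKBIA and TNFAIP3 encode feedback inhibitors. Each had a single entry of its own, and none shared an entry with another gene.

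RNA was sequenced from cells captured out of milk with beads that carried an antibody against keratin 18, an epithelial protein, in Kashmiri cattle, the local breed of the study, and in Jersey cattle. The labels gave 3 Kashmiri samples at each of D15, D90 and D250 of lactation, 3 Jersey samples at D15, 2 at D90 and 3 at D250, which makes 17 samples, and which libraries entered the single Jersey D90 value is not known here. Each day fell in its own month (March, July and December in that order), so the stage of lactation and the season cannot be told apart. By the labels the cows were in lactation number 2 or 3, with number 2 alone in the Kashmiri D90 and Jersey D250 groups and both numbers in the other groups. The paper instead places all cows in lactation number 3 and describes 3 cows of each breed, sampled on all 3 days. Which account is right is not known here. The values were the authors' FPKM (fragment counts scaled to transcript length and library size), 1 value for each gene and each of the 6 groups. With 1 value per group there was no spread between cows, and no test of any difference was possible from these values. The number of reads behind a value was unknown. The paper itself tested differences between days and between breeds with Cuffdiff. It reports Toll receptor signalling as enriched among genes that differed from D15 to D90 and from D15 to D250 in Jersey cattle. Those tests were neither repeated nor used here.

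Receptors at the cell surface and in endosomes recruit the adaptor MYD88, which assembles IRAK kinases around it. These pass the signal to the ubiquitin ligase TRAF6 and on to the IkB kinase, which marks the inhibitor IkB-alpha for destruction and so frees NF-kB to enter the nucleus. Among the genes that NF-kB then switches on are NFKBIA, which encodes IkB-alpha itself, and TNFAIP3, which encodes the ubiquitin-editing enzyme A20, so that the signal limits its own duration. In the udder the pathway is known for the response of epithelial cells and milk leucocytes to bacteria.

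The levels of the 10 genes were higher in Jersey than in Kashmiri cattle at D90 and D250, and within Jersey cattle they were higher at D90 and D250 than at D15. The inhibitor gene NFKBIA stood furthest apart, at 54.2-fold higher FPKM in Jersey than in Kashmiri cattle at D250. Relative to markers common to all leucocytes, a scale chosen after the values were seen, 3 genes were exceptions at D250. Per unit of these markers IRAK4 was lower in Jersey than in Kashmiri cattle (0.064 against 0.094). IRAK3 (0.027 against 0.028) and REL (0.090 against 0.092) were nearly equal. In Kashmiri cattle no gene of the 10 differed between days by an absolute log2 ratio of 2 or more with 1 FPKM added to both values, where 7.5% of all genes tested did from D15 to D90, 1.98% from D90 to D250 and 4.05% from D15 to D250. With shares this small, none of 10 genes is no trait of the members. With 0.1 FPKM added, IRAK3 and REL did differ by that much from D15 to D90, and REL also under some rescalings of FPKM. Ranked among the 12342 genes that reached 1 FPKM in any group, the median percentile of the 10 genes was 74.5, 83.4 and 77.8 in Kashmiri and 78.1, 92.5 and 95.0 in Jersey cattle on the 3 days. The plot of the levels by group shows the 10 genes by role.

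**Figure D1:**
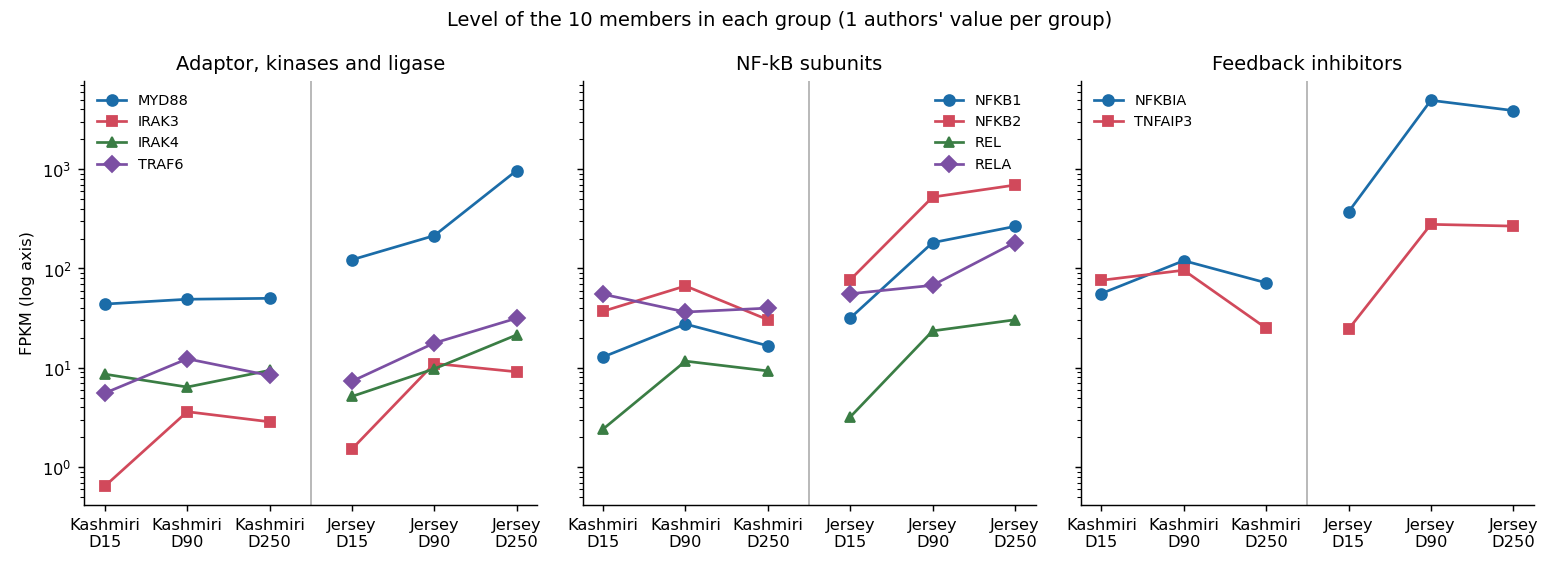
FPKM on a log axis of the adaptor, kinases and ligase (left), the NF-kB subunits (middle) and the feedback inhibitors (right) in the 6 groups of breed and day in milk, each point being the authors' single value for a group with no error. The highest of the 6 points lay in Jersey D250 for 7 genes and in Jersey D90 for 3 genes (IRAK3, NFKBIA and TNFAIP3).

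The identity of the cells was checked with marker lists, because the members are active in leucocytes as well as in epithelium. With qPCR on D90 samples the paper found KRT18 and CSN2 higher, and LSP1, HBA and CD18 lower, in captured than in unsorted milk cells. It proposes that contamination by other cell types was minimal. The lists used here instead compare captured cells between groups. KRT18, the antigen of the capture, had Kashmiri levels of 51.3, 9.13 and 11.5 FPKM at D15, D90 and D250 and Jersey levels of 33.7, 1.59 and 4.51 FPKM on the same days. It was thus lowest in Jersey cattle at D90, where IRAK3, NFKBIA and TNFAIP3 were highest. Of 14 epithelial markers 13 were found, and LALBA (listed at 0 at D15 in both breeds) and CSN3 (listed at 0 at D250 in both breeds and at D90 in Kashmiri cattle) could not be compared over all groups. The paper lists both genes among the most highly expressed in every group, so these values of 0 were not read as absence. The summed FPKM of the other 11, of which KRT8 and EPCAM shared their entries with another gene, was 16284, 2829 and 9243 in Kashmiri and 5096, 260.4 and 2867 in Jersey cattle at D15, D90 and D250. FABP3, KRT19 and ELF5 made up most of the Kashmiri sum at D15, at 10560, 3195 and 1799 FPKM. Of the 12 markers tested between breeds at D15, CSN3 among them, 10 were lower in Jersey cattle, with a median log2 ratio of -0.83. KRT8 (135 against 55.5 FPKM) and CLDN4 (109.6 against 41.3 FPKM) were higher there.

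The 8 neutrophil markers that were found, of 12 listed, summed to 196, 527 and 642 FPKM in Kashmiri and to 4820, 5486 and 13831 FPKM in Jersey cattle. On each of the 3 days, 7 of the 8 were higher in Jersey cattle by a log2 ratio of at least 2, and S100A8, a calcium-binding protein gene of neutrophils, was 45.4-, 17.2- and 28.6-fold higher there. The marker CSF3R shared its entry with another gene, and CXCR1, CXCR2, FCGR3A and CAMP were not found among the names. The 10 macrophage and monocyte markers summed to 109, 483 and 491 FPKM in Kashmiri and to 1014, 2145 and 1852 FPKM in Jersey cattle. CD68 and CD14 made up most of the Jersey sum at D90 and D250, at 1211 and 536 FPKM and at 995.5 and 636 FPKM. At D250 the markers were divided, with 5 of the 9 tested higher and 4 lower in Jersey cattle and a median log2 ratio of 0.10, and the complement genes C1QA, C1QB and C1QC and the scavenger receptor MSR1 were at 0.496, 0.605, 0.458 and 0.469 of the Kashmiri level. The pan-leucocyte and lymphocyte lists had another order.

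The 5 pan-leucocyte markers (PTPRC, LSP1, ITGB2, CORO1A and LCP1) summed to 564, 1264 and 547 FPKM in Kashmiri and to 1681, 1647 and 2345 FPKM in Jersey cattle. The 9 T and NK cell markers summed to 393, 1632 and 375 FPKM in Kashmiri and to 294, 178 and 101 FPKM in Jersey cattle, and the 7 B cell markers stayed between 9.21 FPKM (Jersey, D250) and 79.5 FPKM (Kashmiri, D90). The 4 red blood cell markers found summed to less than 1 FPKM in every group, with HBB, ALAS2 and AHSP listed at 0 in some. The genes of highest mean in each list were LALBA and FABP3 (epithelium), S100A12 and S100A8 (neutrophils), CD68 and CD14 (macrophages), CD3E and CD3D (T cells), CD79A and CD79B (B cells), and LCP1 and CORO1A (all leucocytes). LCP1, an actin-bundling protein gene of leucocytes, had 70.7, 191 and 174 FPKM in Kashmiri and 356, 779.9 and 1277 FPKM in Jersey cattle. CORO1A had 239, 499.6 and 153 FPKM in Kashmiri and 779, 398 and 436 FPKM in Jersey cattle. Like LSP1 (334, 170 and 149 FPKM) it was thus highest at D15 in Jersey cattle, whereas PTPRC was highest at D250 and ITGB2 at D90. CD3E, a chain of the T cell receptor complex, had 146, 659 and 135 FPKM in Kashmiri and 65.5, 31.7 and 19.5 FPKM in Jersey cattle. The neutrophil and macrophage sums were higher in Jersey cattle on every day, as were 8 of the 10 genes at D15 (not IRAK4 and TNFAIP3, with RELA nearly equal) and all 10 at D90 and D250, whereas the lymphocyte sums were lower in Jersey cattle at D90 and D250. The part of these cells in the results below was not tested, and in such bulk samples fewer cells of a type cannot be told apart from less RNA per cell.

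**Figure D2:**
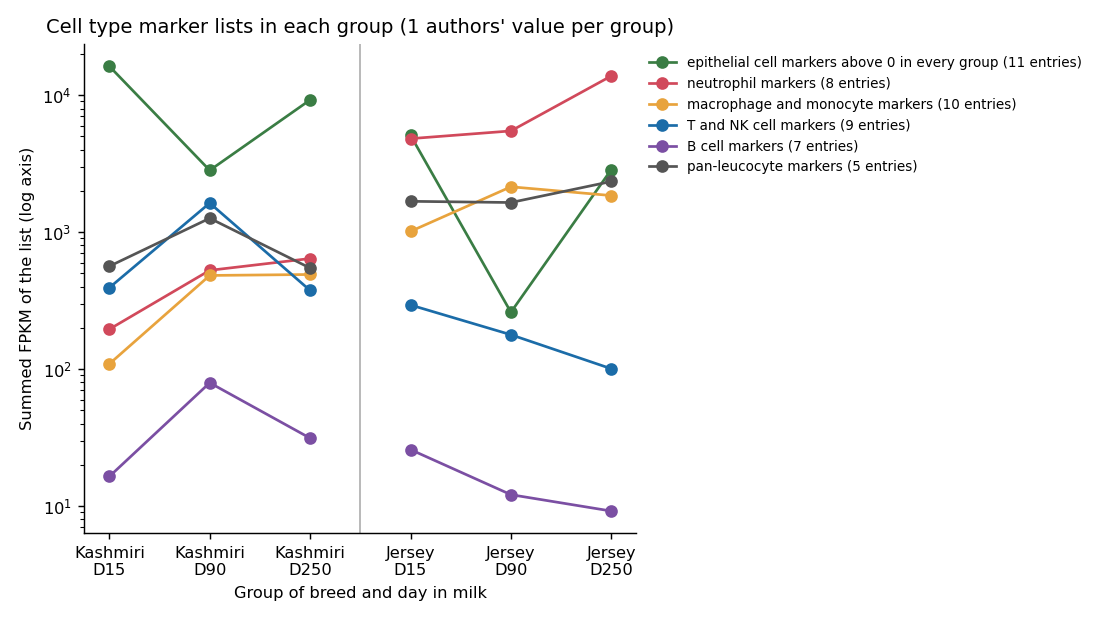
Summed FPKM on a log axis of 6 lists of cell type markers in the 6 groups, 1 point per group with no error; the epithelial list holds the 11 entries above 0 in every group. Neutrophil markers in Jersey cattle (4820 to 13831 FPKM) lay above those in Kashmiri cattle (196 to 642 FPKM) on every day, and the epithelial sum was lowest in Jersey cattle at D90 (260.4 FPKM).

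Of the upstream genes, MYD88, the adaptor itself, had Kashmiri levels of 43.8, 49.0 and 50.1 FPKM at D15, D90 and D250. Its Jersey levels were 122, 214 and 969 FPKM on the same days. The Kashmiri values were nearly level as deposited, but D250 over D15 had a log2 ratio of 1.18 when rescaled to the summed FPKM, and D90 over D15 had one of -1.09 relative to the pan-leucocyte markers. The Jersey values were higher on each later day and above every Kashmiri value. The ratio of Jersey to Kashmiri cattle was 2.79, 4.37 and 19.4 at D15, D90 and D250.

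IRAK4, the kinase that MYD88 recruits first, had 8.63, 6.40 and 9.42 FPKM in Kashmiri and 5.15, 9.77 and 21.4 FPKM in Jersey cattle. TRAF6 had 5.56, 12.3 and 8.37 FPKM in Kashmiri and 7.31, 17.8 and 31.6 FPKM in Jersey cattle. For both, Jersey D250 was the highest of the 6 values, and the breed difference was small at D15, where IRAK4 was lower in Jersey cattle (ratio of 0.597). At D250 the ratio of Jersey to Kashmiri cattle was 2.28 for IRAK4 and 3.77 for TRAF6, both far below that of MYD88.

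IRAK3 encodes a pseudokinase that restrains the IRAK complex, mainly in monocytes and macrophages. It had the lowest level of the 10 in every group but Jersey D90, at 0.644, 3.61 and 2.86 FPKM in Kashmiri and 1.52, 11.0 and 9.11 FPKM in Jersey cattle. In both breeds it was lowest at D15 and highest at D90, with D90 over D15 ratios of 5.61 in Kashmiri and 7.26 in Jersey cattle. The ratio of Jersey to Kashmiri cattle was 2.36, 3.06 and 3.19 on the 3 days. Its FPKM per FPKM of IRAK4 went from 0.0746 in Kashmiri cattle at D15 to 1.13 in Jersey cattle at D90, the only group in which IRAK3 was above IRAK4.

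The subunit genes did not move by equal amounts. NFKB1 and NFKB2, which encode the precursors of the DNA-binding subunits without a transactivation domain, were the subunit genes that differed most between the breeds. NFKB1 had 12.9, 27.6 and 16.7 FPKM in Kashmiri and 31.7, 182 and 265 FPKM in Jersey cattle. NFKB2 had 37.1, 66.7 and 30.5 FPKM in Kashmiri and 76.9, 524 and 691 FPKM in Jersey cattle. Every Jersey value of both genes was above every Kashmiri value, and both peaked at D90 in the Kashmiri groups and at D250 in the Jersey groups. The Jersey difference between D250 and D90 in NFKB2 was small, and its direction turned when FPKM was rescaled to the summed FPKM (log2 ratio of 0.40 as deposited and -0.01 rescaled).

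The ratio of Jersey to Kashmiri cattle was 2.46, 6.60 and 15.9 for NFKB1 and 2.07, 7.85 and 22.7 for NFKB2 at D15, D90 and D250. NFKB2 over NFKB1 stayed between 1.83 (Kashmiri, D250) and 2.89 (Kashmiri, D15) in the 6 groups. The levels of the pair therefore kept a nearly steady proportion while each ranged over 20.6-fold (NFKB1) and 22.7-fold (NFKB2).

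RELA, the subunit that activates transcription in most cells, had 55.0, 36.4 and 39.9 FPKM in Kashmiri and 55.6, 67.7 and 183 FPKM in Jersey cattle. At D15 the breeds were within 1.01-fold of each other, and the sign of that difference turned when FPKM was rescaled by the upper quartile (log2 ratio of 0.02 as deposited and -0.10 rescaled). RELA ranged over only 5.01-fold in the 6 groups, and the D250 value in Jersey cattle was 4.58-fold that in Kashmiri cattle.

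REL, the subunit typical of lymphoid and myeloid cells, was the lowest of the 4 subunit genes in every group, at 2.42, 11.7 and 9.30 FPKM in Kashmiri and 3.20, 23.5 and 30.4 FPKM in Jersey cattle. It was lowest at D15 in both breeds, and its ratio of Jersey to Kashmiri cattle was 1.32, 2.01 and 3.27. The difference between breeds in REL was thus smaller on each day than that in NFKB1 or NFKB2.

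The make-up of the subunit transcripts, a quantity that no rescaling of a group can change, differed between the groups. The 4 subunit genes summed to 107, 142 and 96.3 FPKM in Kashmiri and to 167, 797 and 1169.8 FPKM in Jersey cattle. RELA held 51.2%, 25.6% and 41.4% of that sum in Kashmiri and 33.2%, 8.49% and 15.6% in Jersey cattle. NFKB2 held 34.6%, 46.8% and 31.6% in Kashmiri and 45.9%, 65.7% and 59.1% in Jersey cattle. RELA was the leading subunit gene in Kashmiri cattle at D15 and D250, and NFKB2 led in the other 4 groups. In both breeds the share of RELA was lowest at D90.

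NFKBIA had Kashmiri levels of 56.0, 119.9 and 71.7 FPKM at D15, D90 and D250, and Jersey levels of 371, 4932 and 3889.8 FPKM. All 3 Jersey values lay above the Kashmiri values, and in Jersey cattle at D90 and D250 the gene was at the percentiles 99.95 and 99.88 of the 12342 genes with at least 1 FPKM in some group. The ratio of Jersey to Kashmiri cattle was 6.63, 41.1 and 54.2. Within Jersey cattle D90 was 13.3-fold D15, and D250 was 0.789 of D90.

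TNFAIP3 had 76.1, 96.1 and 25.1 FPKM in Kashmiri and 24.4, 278 and 267 FPKM in Jersey cattle. It was the only gene of the 10 that was at least 3-fold lower in Jersey cattle on any day, at 0.321 of the Kashmiri level at D15, followed by ratios of 2.89 at D90 and 10.7 at D250. Its Kashmiri value at D250 was 0.261 of that at D90, whereas the Jersey values of these days were close to each other. The pair of inhibitors, both known NF-kB targets, thus differed in opposite directions between breeds at D15.

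Within a group, NFKBIA over RELA was 1.02, 3.29 and 1.80 in Kashmiri and 6.67, 72.9 and 21.3 in Jersey cattle. NFKBIA over NFKB1 was almost the same on the 3 Kashmiri days (4.35, 4.35 and 4.30) and was 11.7, 27.1 and 14.7 on the Jersey days. NFKBIA over TNFAIP3 was 0.736, 1.25 and 2.86 in Kashmiri and 15.2, 17.7 and 14.6 in Jersey cattle. The 2 inhibitor genes together had 1.23, 1.52 and 1.00 FPKM per FPKM of the 4 subunit genes in Kashmiri and 2.36, 6.54 and 3.55 in Jersey cattle. These ratios were higher in Jersey than in Kashmiri cattle on each day, and like the shares they do not depend on how a group was scaled. TNFAIP3 over RELA was 1.38, 2.64 and 0.629 in Kashmiri and 0.439, 4.11 and 1.46 in Jersey cattle. At D15 that ratio was thus lower in Jersey cattle.

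**Figure D3:**
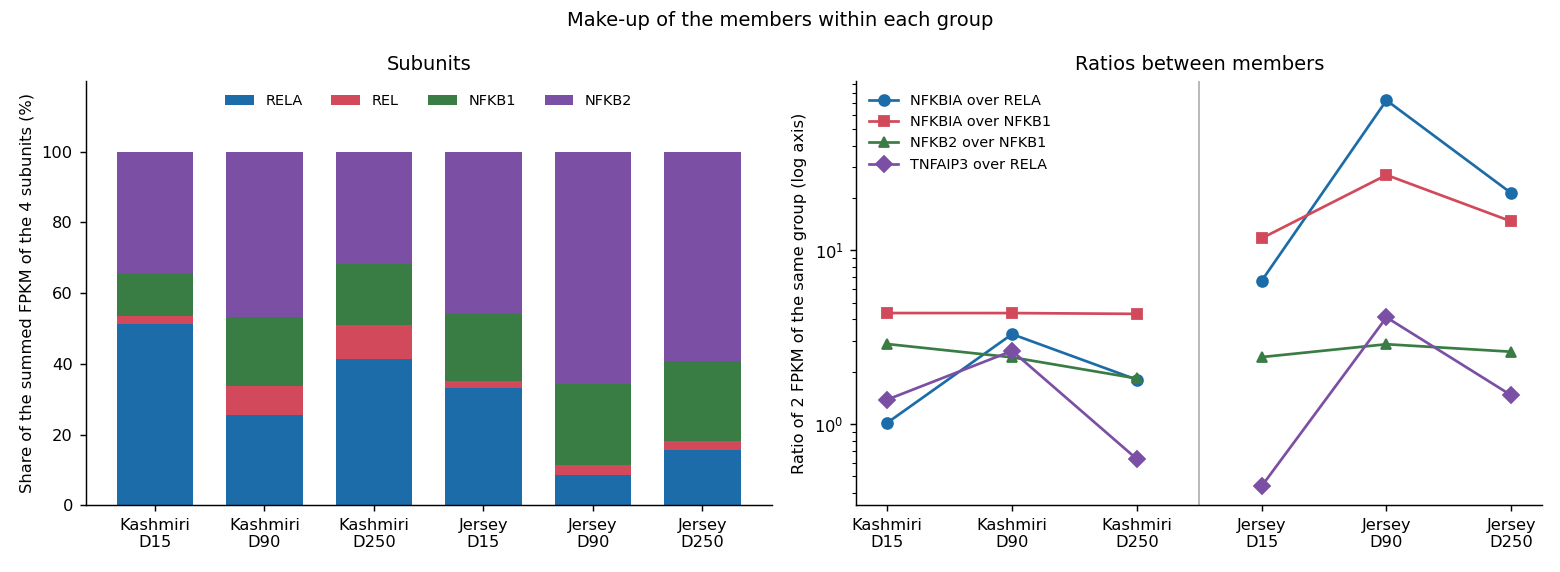
Left, share of each of the 4 subunit genes in their summed FPKM, in percent, for the 6 groups; right, ratios of the FPKM of pairs of members in the same group, on a log axis, 1 value per group with no error. RELA took 8.49% of the subunit sum in Jersey cattle at D90 against 51.2% in Kashmiri cattle at D15, and NFKBIA over RELA ran from 1.02 to 72.9 over the same groups.

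For each pair of groups the log2 ratio was taken with 1 FPKM added to both values, over all genes with at least 1 FPKM in either group, and a gene was said to be past the limit at an absolute log2 ratio of at least 2. All 10 genes entered all 9 comparisons. The limit describes a size and is no test, and comparisons that share a group are not independent of each other. The map of the log2 ratios gives the 10 genes in the 9 comparisons.

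**Figure D4:**
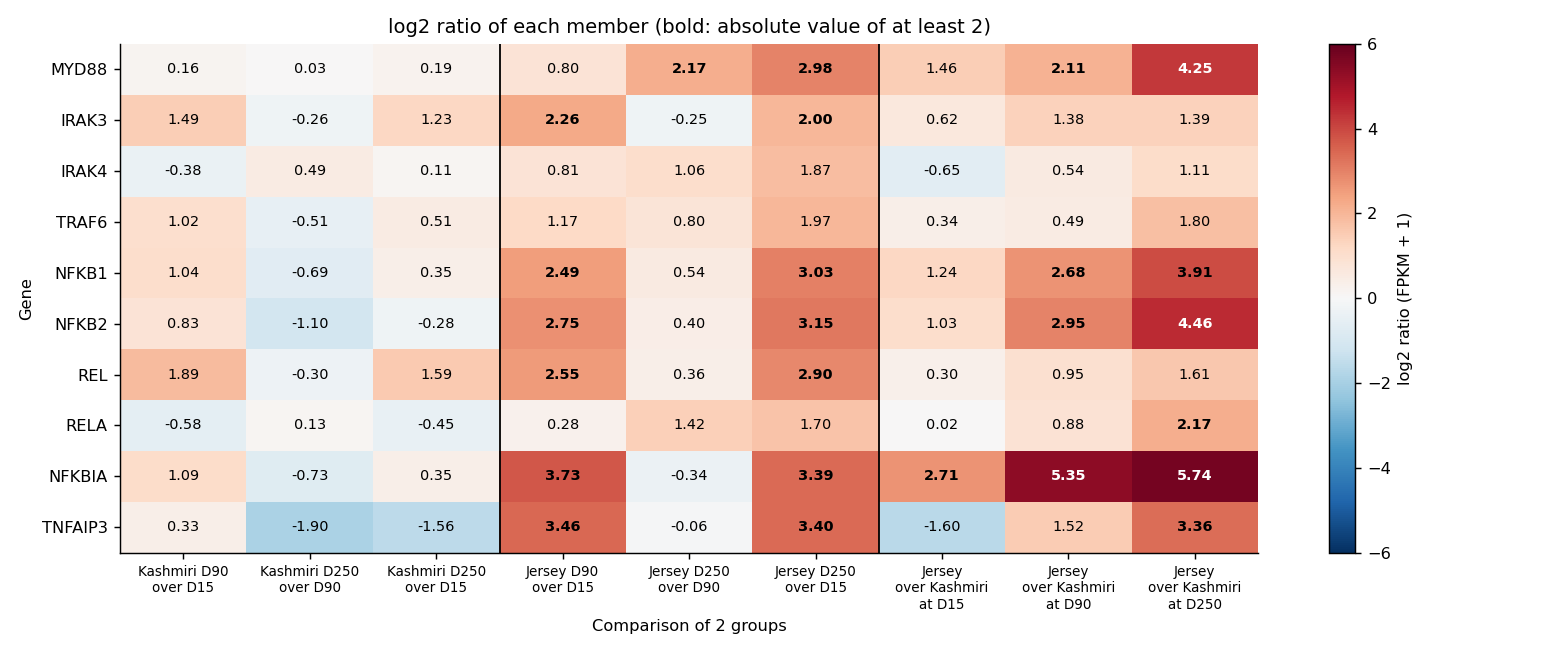
log2 ratio (1 FPKM added to both values) of each of the 10 genes, in rows, in 9 comparisons of 2 groups, in columns, with red for higher and blue for lower in the group named first and bold figures past the limit of 2. None of the 30 values within Kashmiri cattle is past the limit, against 14 of 30 within Jersey cattle and 11 of 30 between breeds, where the share of all genes past it was 1.98% to 7.5%, 4.18% to 12.6% and 8.57% to 12.3%; with 0.1 FPKM added, 2 Kashmiri values (IRAK3 and REL, D90 over D15) are past it.

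Between D15 and D90 in Jersey cattle, all 10 genes were higher at D90. NFKBIA (13.3-fold), TNFAIP3 (11.4-fold), REL (7.35-fold), IRAK3 (7.26-fold), NFKB2 (6.81-fold) and NFKB1 (5.74-fold) were past the limit, 6 of 10 genes, where 6.76% of the 11080 genes tested were past it in either direction and 2.98% were past it upwards. TRAF6 (2.43-fold), IRAK4 (1.90-fold), MYD88 (1.75-fold) and RELA (1.22-fold) were higher by less. The median log2 ratio of the 10 genes was 2.37, beside -0.07 over all genes tested. Over the same interval the pan-leucocyte sum was 1681 and 1647 FPKM, the neutrophil sum was 4820 and 5486 FPKM, the macrophage sum was 1014 and 2145 FPKM and the epithelial sum of 11 markers was 5096 and 260.4 FPKM. The macrophage list was divided, with CD68 at 169 and 1211 FPKM but C1QA at 145 and 60.3, C1QB at 98.2 and 55.9 and C1QC at 144 and 42.9 FPKM. The pan-leucocyte list was divided too, so its level sum does not describe its markers. LCP1 (2.19-fold), PTPRC (1.99-fold) and ITGB2 (1.18-fold) were higher at D90, and LSP1 (0.509) and CORO1A (0.511) were lower.

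Across the later interval in Jersey cattle, D90 to D250, 7 of the 10 genes were higher and 3 were lower at D250, IRAK3, NFKBIA and TNFAIP3. Of these 7, REL and NFKB2 turned to slightly lower when FPKM was rescaled to the summed FPKM (log2 ratios of -0.04 and -0.01). MYD88, at 4.52-fold, was the 1 gene past the limit, where 4.18% of the 10955 genes tested were past it and 3.72% were past it upwards. It was no longer past the limit when FPKM was rescaled to the summed FPKM (log2 ratio of 1.76), by the upper quartile (1.91) or by the pan-leucocyte markers (1.78). RELA was 2.70-fold and IRAK4 2.19-fold higher. MYD88, IRAK4, TRAF6 and RELA, which had differed least between D15 and D90, thus differed most between D90 and D250. The neutrophil sum over the same interval was 5486 and 13831 FPKM.

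From D15 to D250 in Jersey cattle all 10 genes were higher, and 7 of 10 were past the limit, where 12.6% of the 11320 genes tested were past it and 9.17% were past it upwards. The median of the 10 genes was 2.94 on the log2 scale and that of all genes tested was 0.07. IRAK3 was just past the limit with a log2 ratio of 2.00. It fell short of the limit when rescaled to the summed FPKM (1.86), by the upper quartile (1.86) or by the pan-leucocyte markers (1.49). TRAF6 (1.97), IRAK4 (1.87) and RELA (1.70) were not past the limit.

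In Kashmiri cattle 8 of the 10 genes were higher at D90 than at D15, with a median log2 ratio of 0.92 beside -0.01 over all genes. IRAK3 (5.61-fold) and REL (4.83-fold) differed most, and neither was past the limit with 1 FPKM added (log2 ratios of 1.49 and 1.89, among 11297 genes tested), but both were past it with 0.1 FPKM added (2.32 and 2.23), and REL was when FPKM was rescaled to the summed FPKM, by the upper quartile or by the reference genes (2.07, 2.04 and 2.11). RELA and IRAK4 were lower at D90. At D250 against D90, 7 of the 10 were lower, and IRAK3, TRAF6 and REL among them turned to higher when FPKM was rescaled to the summed FPKM (log2 ratios of 0.28, 0.13 and 0.34). At D250 against D15, 7 of the 10 were higher, by most IRAK3 (4.44-fold) and REL (3.85-fold). When FPKM was rescaled to the summed FPKM, 1 of the 10 was past the limit in this comparison. As deposited 3 were lower, NFKB2, RELA and TNFAIP3. Of those 3, NFKB2 and RELA turned to higher when FPKM was rescaled to the summed FPKM or by 6 reference genes.

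The pan-leucocyte sum in Kashmiri cattle was highest at D90 too (564, 1264 and 547 FPKM). Relative to the geometric mean of the 5 pan-leucocyte markers, a scale chosen after the values were seen, 2 of the 10 genes (IRAK3 and REL) were higher at D90 than at D15, in place of 8, and 9 of the 10 (all but TNFAIP3) were higher at D250 than at D90, in place of 3. In Jersey cattle on the same scale all 10 remained higher at D90 and at D250 than at D15. The 5 markers behind the scale were themselves divided over these Jersey days. At D250 PTPRC (5.34-fold), LCP1 (3.58-fold) and ITGB2 (1.08-fold) were above D15, and LSP1 (0.446) and CORO1A (0.560) were below it. NFKBIA per unit of these markers was 0.593, 0.525 and 0.713 in Kashmiri and 1.53, 19.1 and 11.5 in Jersey cattle.

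The signed log2 ratio of the later over the earlier day, from plain FPKM, was more upward or less downward in Jersey than in Kashmiri cattle for all 10 genes in each of the 3 pairs of days. Taken without its sign the ratio was larger in Kashmiri cattle for RELA from D15 to D90 and for IRAK3, NFKB1, NFKB2, NFKBIA and TNFAIP3 from D90 to D250 (for TNFAIP3 -1.94 in Kashmiri and -0.06 in Jersey cattle). From D90 to D250 the signed order held for 6 of the 10 when FPKM was rescaled to the summed FPKM, for 9 (all but IRAK3) when rescaled by the upper quartile or by 6 reference genes, and for 2 (MYD88 and TNFAIP3) relative to the pan-leucocyte markers, whereas from D15 to D90 and from D15 to D250 it held for all 10 under every scaling tried. The median of the signed difference, Jersey minus Kashmiri, was as deposited 1.12 from D15 to D90, 1.29 from D90 to D250 and 2.44 from D15 to D250. As deposited, the breeds had opposite signs for IRAK4 and RELA from D15 to D90, for TRAF6, NFKB1, NFKB2 and REL from D90 to D250, and for NFKB2, RELA and TNFAIP3 from D15 to D250. The signs of IRAK4 and RELA from D15 to D90 and of TNFAIP3 from D15 to D250 kept these directions under every scaling tried, whereas each of the others turned in at least 1 breed under some scaling (NFKB1 only relative to the pan-leucocyte markers). No test of these differences was possible with 1 value per group.

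Between the breeds at D15, 8 of the 10 genes were higher in Jersey cattle, with IRAK4 and TNFAIP3 lower, and RELA, nearly equal, turned to lower when FPKM was rescaled by the upper quartile. NFKBIA, at 6.63-fold, was the only gene past the limit, where 8.57% of the 11202 genes tested were past it and 6.45% were past it upwards. The median of the 10 genes was 0.48, beside -0.13 over all genes. Relative to the pan-leucocyte markers only MYD88 and NFKBIA were higher in Jersey cattle at D15, NFKBIA was no longer past the limit (log2 ratio of 1.36), and TNFAIP3 was past it downwards (-2.94). The neutrophil sum at this day was 196 FPKM in Kashmiri and 4820 FPKM in Jersey cattle.

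At D90 all 10 genes were higher in Jersey cattle, and MYD88, NFKB1, NFKB2 and NFKBIA, 4 of 10, were past the limit, where 11.7% of the 11209 genes tested were past it and 6.58% were past it upwards. MYD88 was no longer past the limit when rescaled by the upper quartile (1.97) or by the pan-leucocyte markers (1.93). The median of the 10 genes was 1.45, beside -0.03 over all genes. All 10 were also higher relative to the pan-leucocyte markers, whose summed FPKM was 1264 in Kashmiri and 1647 in Jersey cattle at this day. Those markers were divided, with LCP1 (4.08-fold) and ITGB2 (1.17-fold) higher and PTPRC (0.720), LSP1 (0.670) and CORO1A (0.797) lower in Jersey cattle.

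At D250 all 10 genes were again higher in Jersey cattle, and MYD88, NFKB1, NFKB2, RELA, NFKBIA and TNFAIP3, 6 of 10, were past the limit, where 12.3% of the 11642 genes tested were past it and 10.9% were past it upwards. RELA was no longer past the limit when rescaled to the summed FPKM (1.42), by the upper quartile (1.67) or by the pan-leucocyte markers (0.45). TNFAIP3 was no longer past it when rescaled by those markers (1.65). The median of the 10 genes was 2.76, beside -0.10 over all genes. Relative to the pan-leucocyte markers 7 of the 10 were higher, IRAK4 was lower, and IRAK3 and REL were lower by very little. The neutrophil sum was 642 FPKM in Kashmiri and 13831 FPKM in Jersey cattle at this day.

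The summed FPKM of all named genes ran from 490166 in Kashmiri cattle at D250 to 969227 in Kashmiri cattle at D15, and rescaling to that sum without the milk protein genes moved the median of all genes from -0.04 to 0.81 between these groups. The 10 genes were therefore also read relative to the median of all genes tested. Over the deposited scale and the other scalings, filters and pseudocount tried, this difference of medians was 2.35 to 2.72 for D90 over D15 and 2.77 to 2.94 for D250 over D15 in Jersey cattle. Between the breeds it was 0.46 to 0.87 at D15, 1.44 to 1.60 at D90 and 2.44 to 2.93 at D250. In Kashmiri cattle it was 0.77 to 0.98 for D90 over D15, 0.27 to 0.43 for D250 over D15 and -0.48 to -0.39 for D250 over D90. A rescaling shifts the members and all genes by nearly equal amounts, so a small range of this difference is given by its construction.

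The other genes of the pathway were taken from lists of adaptors and kinases, IkB proteins and further subunits, other inhibitors, and the TNF receptor branch, of which 53 of 56 genes were found in 52 entries (NFKBIZ, ITCH and RNF31 were not found). Of these entries 9 were joined with a further gene name, which leaves their values uncertain. In Kashmiri cattle none of the 49 or 50 entries tested was past the limit between any 2 days. The share of all genes tested past it was 7.5% from D15 to D90, 1.98% from D90 to D250 and 4.05% from D15 to D250. In Jersey cattle 9 of 51 were past it upwards and 1 downwards at D90 against D15, 1 of 51 upwards at D250 against D90, and 15 of 52 upwards and 1 downwards at D250 against D15. The shares of all genes tested past it upwards were 2.98%, 3.72% and 9.17%, in that order. Jersey over Kashmiri gave 3 of 51 at D15, 13 of 50 at D90 and 23 of 51 at D250 past it upwards, and 1 downwards at D90. Beside these, 6.45%, 6.58% and 10.9% of all genes tested were past it upwards on the same days. The counts for the breeds at D15 and for D250 against D90 in Jersey cattle did not exceed the share over all genes. The entry that was past the limit downwards at D90 was SIGIRR, a receptor that dampens MYD88 signalling, named after its value was seen, with 27.3 FPKM in Kashmiri and 3.55 FPKM in Jersey cattle.

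Among the 18 other adaptors and kinases, 4 were past the limit upwards in Jersey over Kashmiri cattle at D250, beside 10.9% of all genes tested. The median of the list was 0.66. PELI1, a ubiquitin ligase of the IRAK complex, had 7.82, 7.71 and 6.73 FPKM in Kashmiri and 10.8, 64.3 and 172 FPKM in Jersey cattle at D15, D90 and D250. IKBKB, the catalytic subunit of the IkB kinase, had 19.4, 14.6 and 10.9 FPKM in Kashmiri and 40.7, 70.1 and 143 FPKM in Jersey cattle. The others were the kinase IRAK2, with 6.82 FPKM in Kashmiri and 60.6 FPKM in Jersey cattle at D250, and the TRAF6 partner TAB2, with 15.3 and 73.1 FPKM.

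Of the 7 further subunits and IkB proteins found, 6 were past the limit upwards at D250 (10.9% of all genes tested), with a list median of 3.14. BCL3, an IkB protein that binds the NFKB1 and NFKB2 products in the nucleus, was past it on all 3 days, at 12.3, 23.9 and 16.1 FPKM in Kashmiri and 76.1, 231 and 799 FPKM in Jersey cattle. NFKBID, a nuclear IkB protein, had 3.05, 12.6 and 4.01 FPKM in Kashmiri and 7.90, 95.5 and 51.7 FPKM in Jersey cattle. RELB and NFKBIE were also past the limit at D250, but their entries were joined with CLASRP and SLC35B2, respectively, so their values are uncertain.

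Of the 13 other inhibitors found, 5 were past the limit upwards at D250 (10.9% of all genes tested), with a list median of 0.94. TNIP1, a partner of A20, had 78.8, 105.7 and 59.0 FPKM in Kashmiri and 247, 915 and 1392 FPKM in Jersey cattle. CYLD, a deubiquitinase, had 11.9 FPKM in Kashmiri and 206 FPKM in Jersey cattle at D250, and ZC3H12A, a ribonuclease that degrades cytokine transcripts, had 4.97 and 82.2 FPKM. TNIP3, at 0.256 and 5.91 FPKM, was past the limit at a low level.

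Of the 14 entries of the TNF receptor branch, 8 were past the limit upwards at D250 (10.9% of all genes tested), with a list median of 2.14. TNFRSF1A, the main receptor of TNF, was past it on all 3 days, at 31.5, 23.9 and 30.3 FPKM in Kashmiri and 219.6, 274 and 851 FPKM in Jersey cattle. The joined entry of BIRC2 and BIRC3, which encode ubiquitin ligases of this branch, had 16.0, 45.0 and 37.8 FPKM in Kashmiri and 22.6, 418 and 1212 FPKM in Jersey cattle. TANK, a TRAF-binding protein, had 10.7 and 361 FPKM at D250, and TRAF1, an NF-kB target that binds TNF receptors, had 12.7 and 229.9 FPKM.

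Upstream of MYD88, 11 of 14 receptors and receptor chains were found, and 4 of 8 tested at D15, 5 of 8 at D90 and 5 of 9 at D250 were past the limit upwards in Jersey over Kashmiri cattle. The shares over all genes tested were 6.45%, 6.58% and 10.9%. TLR2, the receptor of bacterial lipoproteins, had 6.87, 9.04 and 15.7 FPKM in Kashmiri and 63.5, 177 and 299.9 FPKM in Jersey cattle. TLR4, the receptor of lipopolysaccharide, had 5.47, 9.45 and 20.7 FPKM in Kashmiri and 40.1, 143 and 337 FPKM in Jersey cattle. IL1RAP, the shared chain of the interleukin 1 receptor family, had 0.583, 1.80 and 4.70 FPKM in Kashmiri and 6.13, 33.4 and 234 FPKM in Jersey cattle. These 3 were past the limit on every day, whereas IL1R1 was below the Kashmiri level at D15 (7.56 against 16.0 FPKM) and above it at D250 (131 against 9.48 FPKM).

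Downstream, 14 of 18 known NF-kB target genes were found (CXCL8, CXCL2, VCAM1 and SOD2 were not), and 6 of 12 tested at D15, 10 of 14 at D90 and 13 of 13 at D250 were past the limit upwards in Jersey over Kashmiri cattle, with medians of 1.84, 3.98 and 4.44. The shares over all genes tested were 6.45%, 6.58% and 10.9%. IL1B, which encodes a cytokine that itself signals through MYD88, had 16.2, 16.1 and 20.5 FPKM in Kashmiri and 243, 1905 and 3290.1 FPKM in Jersey cattle. Its Kashmiri level, like that of MYD88, was near-constant on the deposited scale. CCL2, a monocyte attractant, had 7.85, 82.6 and 78.1 FPKM in Kashmiri and 122, 1550.5 and 777 FPKM in Jersey cattle, and the survival gene BCL2A1 had 34.6, 74.0 and 33.2 FPKM in Kashmiri and 177, 1089 and 1401 FPKM in Jersey cattle.

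IER3 was also past the limit on all 3 days, at 19.2-, 24.3- and 38.2-fold the Kashmiri level, as was PTGS2, the inducible prostaglandin synthase, with 0.132, 0.640 and 0.734 FPKM in Kashmiri and 4.23, 27.3 and 36.6 FPKM in Jersey cattle. The cytokine gene IL1A had 1.50 FPKM in Kashmiri and 173 FPKM in Jersey cattle at D250, and the chemokine gene CCL20 had 0.326 and 69.4 FPKM. ICAM1 was past the limit on every day as well, in an entry joined with ICAM4 and ICAM5. Several of these targets are also known products of activated neutrophils and macrophages, whose marker sums moved with breed as given above, and their part in these differences was not tested.

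**Figure D5:**
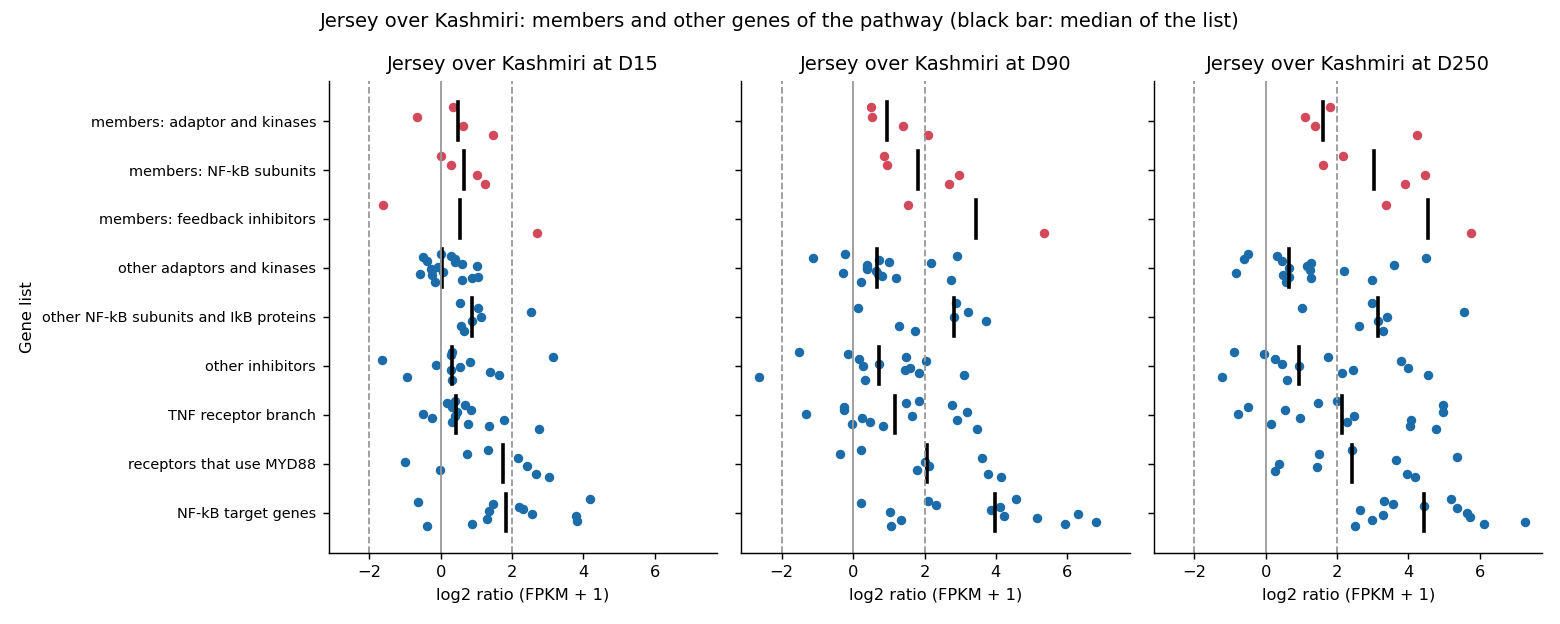
log2 ratio of Jersey over Kashmiri cattle (1 FPKM added to both values) at D15, D90 and D250 for the members in red and the other genes of the pathway in blue, by gene list, with 1 point per entry, a black bar at the median of each list and dashed lines at the limit of 2 in either direction. The median of the NF-kB target genes was 1.84, 3.98 and 4.44 on the 3 days, and that of the other adaptors and kinases was 0.04, 0.67 and 0.66.

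The 10 genes resembled each other to different degrees over the 6 groups. Of the 45 pairs, the Pearson correlation of log2(FPKM + 1) ran from 0.535 (IRAK3 and RELA) to 0.994 (NFKB1 and NFKB2), with a median of 0.800. Among the genes closest to the mean of the 10, out of 1965 symbols with at least 10 FPKM in some group and an SD of at least 1 on the log2 scale, were PRDM1 (0.999), KSR1 (0.996), KAT6A (0.993) and GPX3 (0.993). PRDM1, a transcription factor gene, had 2.88, 7.16 and 4.56 FPKM in Kashmiri and 5.53, 45.5 and 74.0 FPKM in Jersey cattle. These correlations rest on 6 values each, which share the same groups and scaling, and are a description.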

How the data were processed

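Reads were cleaned with Trimmomatic and mapped to cattle assembly UMD3.1 by the authors with Bowtie2 and TopHat, and they deposited FPKM from Cufflinks and Cuffdiff, 1 value per gene and group, in 61264 entries of which 25121 carried a gene name. The columns named Local were taken as Kashmiri, the only other breed in the labels, and stages 1, 2 and 3 as D15, D90 and D250. Of entries repeating a name, that of highest mean was kept. Values per library were not analysed here, so no error or test is given.

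The log2 ratio of FPKM + 1 was computed for genes with at least 1 FPKM in either group, with a limit of 2, and folds of single genes are plain ratios of FPKM. Members and lists were chosen with earlier results of these data known. The text names all members, of each pathway list up to 4 genes with the largest ratio between breeds at D250 and those past the limit in all 3 breed comparisons, of each marker list the 2 highest and those at 0, and the 5 genes most like the mean of the members, of which 1 is not reported here. HBA, HBA1, GNLY and BTN1A1 were not found. Alternatives were a pseudocount of 0.1, no filter, a limit of 1, rescaling to the summed FPKM without milk protein genes, by the upper quartile and by 6 reference genes, summed repeated names, and, chosen after seeing the data, rescaling by pan-leucocyte markers. The code was tested on simulated data. Scripts ran under Python 3.11.15 with pandas 2.3.3, numpy 2.4.6 and, for plots, matplotlib 3.10.9.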

Additional observations from a re-analysis of the deposited data

How the results depend on the processing

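Each group had 1 value from an unknown number of reads, so no replicate could be left out and differences of low genes such as IRAK3 have no known precision. No paired analysis was possible because the values carried no sample or replicate number. Of 108 medians and counts recomputed under the other settings, 92 kept their sign and stayed within 1.5-fold. Of 450 ratios of single members 412 did so, 10 changed sign, and 118 of the 125 ratios past the limit of 2 remained past it. Some settings could not change these values. Summing repeated names left every member as it was, since each had 1 entry, and dropping the filter left the counts, since all members passed it. The totals that stayed the same therefore overstate the stability. The cause of the changes was not tested, beyond the change of scale itself. With a limit of 1 in place of 2, the members past it became 5, 2 and 3 in Kashmiri cattle from D15 to D90, D90 to D250 and D15 to D250 (0 before), 3 for D250 over D90 in Jersey cattle (1 before), and 5 at D15 and 10 at D250 between the breeds (1 and 6 before). The share of all genes past a limit of 1 was not computed, so these counts have no background and say nothing particular about the members. Members past the limit for D90 over D15 in Kashmiri cattle became 2 with a pseudocount of 0.1, and 1 when rescaled to the sum, by the upper quartile or by the reference genes. Rescaled to the sum, the count became 1 for D250 over D15 in Kashmiri cattle, and it became 0 for D250 over D90 in Jersey cattle under the sum, the upper quartile and the pan-leucocyte markers. Medians of the members rescaled to the sum were 0.21 from D90 to D250 and 1.24 from D15 to D250 in Kashmiri cattle, and 2.02 between the breeds at D250. Rescaled by the pan-leucocyte markers they were -0.30 for D90 over D15 and 0.63 for D250 over D90 in Kashmiri cattle, and -0.52 at D15 and 1.05 at D250 between the breeds, and 22 of 90 single ratios changed sign.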
